A study of Mus musculus with 6 samples.

Results

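The genes described here are 10 components of the JAK-STAT pathway: the kinases Jak1 and Jak2, the transcription factors Stat3, Stat5a and Stat5b, the feedback inhibitors Socs1, Socs2, Socs3 and Cish, and the kinase gene Pim1. They were taken by symbol from a table of 22162 genes, and all 10 were found once. Poly(A) RNA was sequenced from mouse skin fibroblasts (MSFs), primary cells isolated from the dorsal skin of 1 female FASST mouse on the FVB background, to compare senescent with non-senescent stromal cells. FASST cells carry a tamoxifen-dependent Cre-ERT2 driven by the pro-alpha 2(I) collagen promoter and a lox-stop-lox p27Kip1 IRES GFP allele at ROSA26, and both groups carry both alleles. The 3 TAM libraries, labelled senescent, came from MSFs given 10 µM tamoxifen (TAM) for 48 h, and the 3 EtOH libraries, labelled non-senescent, from MSFs given the ethanol vehicle. Both groups were cultured at 3% oxygen. No library of TAM-treated cells without the alleles was analysed here, so an effect of the drug and an effect of the allele cannot be told apart. The sources do not say whether the 3 libraries of a group came from separate cultures, so p-values measure the spread between these libraries, which may be technical.

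Cytokine and hormone receptors that lack a kinase of their own bind Janus kinases (JAKs), which phosphorylate the receptor and then the STAT proteins docked on it. Phosphorylated STATs pair, enter the nucleus and switch on target genes, among them the SOCS genes and Cish, whose products bind the receptor or the JAK and limit the signal. In fibroblasts the IL-6 family signals mostly through STAT3, and growth hormone and prolactin through STAT5. RNA levels do not report phosphorylation.

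STAT dimers bind palindromes of the form TTCNNNGAA, which read the same on both strands. This motif was searched for in the RefSeq promoters of the members (GRCm38.p6, 250 bases before to 50 after each annotated start). Of the 10 members, 9 had entries, with 12 promoters among them, and Socs2 had no entry. The motif stood in 2 of the 12 promoters, once in that of Socs3 and 2 times in that of Cish. Of all 32851 mouse promoters of this length, 8.30% hold at least 1 copy and 0.457% hold 2 or more. The 2 promoters with the motif, those of Socs3 and Cish, are shown. Both genes encode STAT-induced inhibitors, and their RNA levels ran alongside that of Stat3 over the libraries, as described further on. So did that of Pim1, whose promoters held no copy of the motif. The sequences are written 5′ to 3′ on the strand of the gene, with the motif in capitals. The Socs3 promoter is at chr11:117969317-117969616 on the minus strand, with TTCTTAGAA centred at −150 from the annotated start. The Cish promoter is at chr9:107296409-107296708 on the plus strand, with TTCCTGGAA centred at 4 and TTCTTGGAA at 15, both past the annotated start. A match describes letters only and was not tested as a binding site.
Socs3: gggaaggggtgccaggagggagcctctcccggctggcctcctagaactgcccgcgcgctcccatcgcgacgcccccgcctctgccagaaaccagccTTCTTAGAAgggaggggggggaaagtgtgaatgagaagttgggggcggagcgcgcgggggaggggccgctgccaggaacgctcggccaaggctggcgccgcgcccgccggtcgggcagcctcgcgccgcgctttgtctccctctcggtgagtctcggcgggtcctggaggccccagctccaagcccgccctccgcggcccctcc
Cish: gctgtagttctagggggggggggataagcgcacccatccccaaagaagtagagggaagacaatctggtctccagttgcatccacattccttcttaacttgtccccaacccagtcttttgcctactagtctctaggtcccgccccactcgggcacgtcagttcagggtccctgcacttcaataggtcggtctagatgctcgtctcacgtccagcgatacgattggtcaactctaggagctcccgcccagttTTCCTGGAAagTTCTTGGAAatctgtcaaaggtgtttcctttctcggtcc

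The values are the deposited normalized counts per gene, which summed to between 14952367 and 17314953 per library. Differences were computed on log2(normalized counts + 1), and a fold change on this scale understates the change of low genes. All 10 members passed the filter of 1 c.p.m., equal to 16.2 normalized counts, in at least 3 of the 6 libraries, as did 11877 genes in all. A gene could pass through a single group, as Kdr did through EtOH and Lcn2, Il6 and Il13ra2 did through TAM. The replicate 2 libraries stood apart from the others of their group. EtOH replicate 2 was at least 1.5 times both other EtOH libraries for 13.0% of genes and TAM replicate 2 for 13.3% within TAM, against 2.82% to 4.04% for the other 4 libraries. Cdkn1b, the gene of p27Kip1, was at 1427, 3074 and 1853 in EtOH and 1699, 1520 and 1630 in TAM replicates 1, 2 and 3 (log2 fold change −0.32, standard error 0.28, limma adjusted p = 0.677). Whether reads from the ROSA26 allele count towards Cdkn1b is not given in the sources used here, so these values do not check its activation. All 10 fibroblast markers were tested, with summed levels of 1962060 to 2082630 in EtOH and 1278750 to 1594320 in TAM. No marker of the list passed the adjusted threshold, and 3 had positive and 7 negative log2 fold changes, among them −2.37 for Dcn, −2.38 for Lum and 1.36 for Thy1, each without overlap (limma adjusted p = 0.163, 0.236 and 0.295). Leukocyte markers summed to 131 to 431 in EtOH and 168 to 326 in TAM, with Emr1, Tyrobp and Cd3e at 0 in all 6 libraries. Most of that sum was Cd68 (49.6 to 352) and Csf1r, at 73.4 to 75.7 in EtOH and 90.6 to 226 in TAM. Keratinocyte markers summed to 66.8 to 83.4 in EtOH and 52.7 to 80.1 in TAM, mostly Krt10, with Krt1 at 0 in all libraries and Trp63 at 24.9 to 25.8 in EtOH and 2.50 to 7.15 in TAM. Endothelial markers summed to 85.9 to 241 in EtOH and 15.7 to 35.1 in TAM, mostly Kdr in EtOH (205, 68.7 and 116 against 4.84, 7.53 and 14 in TAM; limma adjusted p = 0.0608 without and 0.0488 with the replicate block described further on). The part of these markers in the values below was not tested.

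No member of the 10 passed an adjusted p of 0.05 in the comparison of TAM with EtOH MSFs, in a table where 0.244% of the genes tested did. The lowest adjusted p among the members was 0.295, that of Socs2 (limma, Benjamini-Hochberg). Socs2, the inhibitor best known for limiting growth hormone signalling, was the 1 member whose groups did not overlap, with a mean 4.75 times higher in EtOH than in TAM. Groups did not overlap, with TAM the lower, for 11.4% of all genes. Log2 fold changes were positive for 5 members, as for 46.2% of all genes, and negative for 5, with a median of 0.04 against −0.03 for all genes tested. Only Socs2 had an unadjusted p under 0.05, in limma's moderated test, which 13.4% of all genes had. These are bulk samples, so fewer cells of a type and less RNA per cell cannot be told apart.

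**Figure D1:**
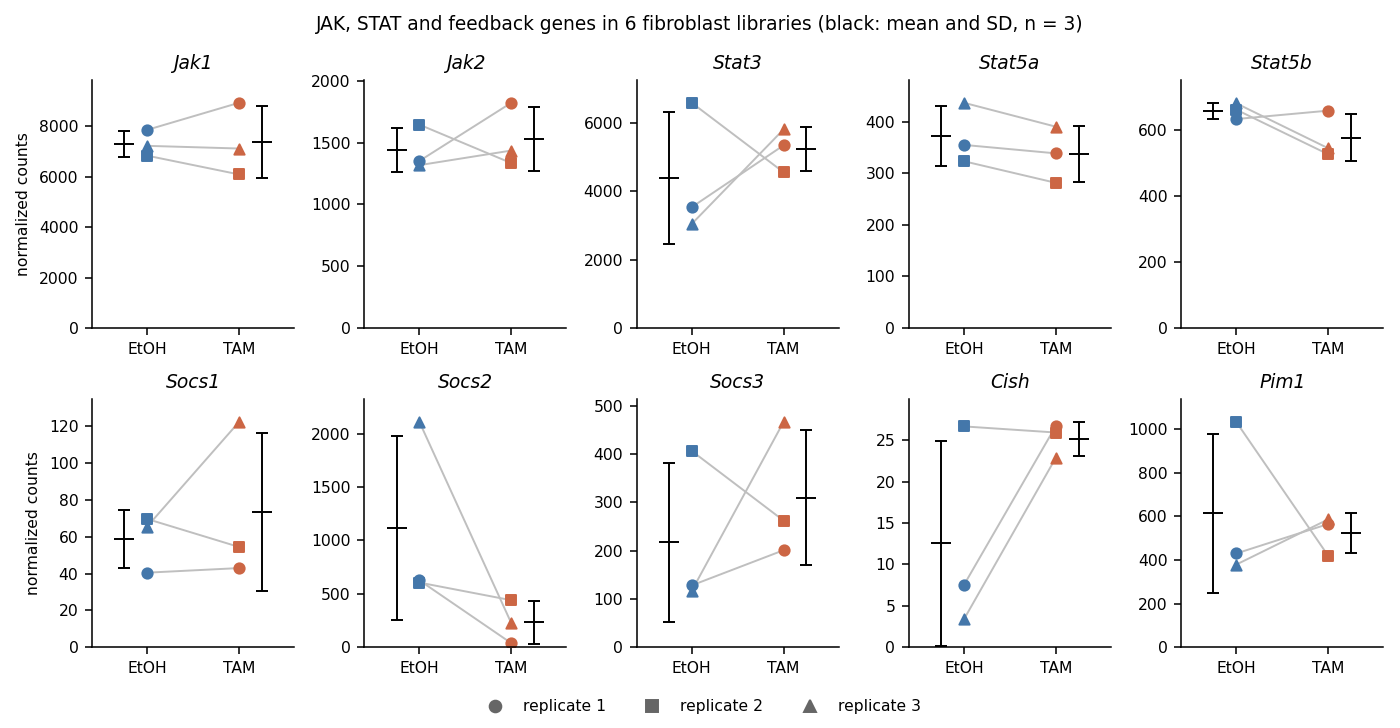
Normalized counts (vertical axes, linear and from 0) of the 10 members in the EtOH and TAM libraries, with marker shapes for replicates 1, 2 and 3, grey lines joining libraries of the same number, and black bars for the mean and SD of 3 libraries. Socs2 shows no overlap between groups, from 605 upward in EtOH and up to 440 in TAM, and EtOH replicate 2 lies well above the other EtOH libraries for Stat3, Socs3, Cish and Pim1.

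Jak1, the kinase shared by the IL-6 family, interferon and many interleukin receptors, lies on chromosome 4 of mm9 from 100824972 to 100937887 (ENSMUSG00000028530). Per transcript length it was the most abundant member. It was at 7866, 6842 and 7232 normalized counts in EtOH replicates 1, 2 and 3 and 8941, 6097 and 7126 in TAM. The groups overlapped, and the highest and the lowest library were both TAM libraries. Its log2 fold change of −0.00 had a standard error of 0.21 and a 95% interval of −0.49 to 0.48 (limma adjusted p = 0.999). Under scaling by library size the value was 0.11, and under median-ratio scaling and quantile normalization it was 0.02 in each, so the sign of this small difference depends on the scaling.

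Jak2, which serves the growth hormone, prolactin and erythropoietin receptors, lies on chromosome 19 from 29326318 to 29387570 (ENSMUSG00000024789). Its normalized counts were 1352, 1646 and 1318 in EtOH and 1823, 1335 and 1436 in TAM. TAM replicate 1 was the highest library and the other 2 TAM libraries lay within the EtOH range. On the log2 scale TAM minus EtOH was 0.08 ± 0.19 (standard error), with a 95% interval of −0.36 to 0.53 (limma adjusted p = 0.887).

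Stat3, Stat5a and Stat5b are neighbours on mouse chromosome 11, listed in mm9 from 100746412 to 100800718, from 100720665 to 100746483 and from 100642045 to 100683842. Stat3 (ENSMUSG00000004040) and Stat5a (ENSMUSG00000004043) lie on opposite strands and share 72 exonic bases at their 3′ ends, at chr11:100746412-100746483, or 1.01% of the exonic bases of Stat5a. Whether the counting used strand is not given in the sources used here.

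Stat3, the main transducer of IL-6 family cytokines, was at 3539, 6597 and 3048 normalized counts in EtOH and 5350, 4562 and 5816 in TAM. EtOH replicate 2 was the highest of all 6 libraries and EtOH replicates 1 and 3 were the lowest, so the groups overlapped through a single library. The means were 4395 ± 1923 in EtOH and 5243 ± 634 in TAM (SD, n = 3). This gave a log2 fold change of 0.33 with a standard error of 0.31 and a 95% interval of −0.39 to 1.05 (limma adjusted p = 0.687). Without EtOH replicate 2 it was 0.67 (limma adjusted p = 0.233), and without both replicate 2 libraries 0.76 (limma adjusted p = 0.112). Without EtOH replicate 3 it was 0.11 (limma adjusted p = 0.957), and without both replicate 3 libraries 0.03 (limma adjusted p = 0.999), so its size rested on single libraries in either direction.

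Stat5a, a transducer of prolactin and growth hormone signals, was at 355, 323 and 437 normalized counts in EtOH and 339, 282 and 390 in TAM. The groups overlapped, although TAM was below EtOH in each of the 3 same-numbered pairs. Its log2 fold change was −0.14 with a 95% interval of −0.64 to 0.35 (standard error 0.21, limma adjusted p = 0.815), and it was −0.02 without EtOH replicate 3 and also without TAM replicate 2. Stat5b (ENSMUSG00000020919), its close paralog, was at 633, 661 and 680 in EtOH and 658, 526 and 544 in TAM. Of the TAM libraries, 2 lay below every EtOH library and 1 lay within their range. For Stat5b the log2 fold change was −0.20 with a 95% interval of −0.59 to 0.19 (standard error 0.17, limma adjusted p = 0.654).

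The STAT5 paralogs were also set against each other within each library, where scaling cancels. The log2 ratio of Stat5a to Stat5b was −0.83, −1.03 and −0.64 in EtOH and −0.96, −0.90 and −0.48 in TAM. Stat5b had the higher count in every library, and the ratios of the groups overlapped. Their means were −0.83 ± 0.20 and −0.78 ± 0.26 (SD, n = 3), a difference of 0.05 (exact two-sided permutation p = 0.7, with 0.1 the smallest that 3 against 3 libraries allow). Reads can be ambiguous between the paralogs. Their longest coding transcripts were 90.5% identical over 2337 aligned bases. In stretches of at least 100 bases with no less than 95% identity, 32.5% of the Stat5a transcript and 24.1% of the Stat5b transcript matched the partner. The values of both genes are therefore uncertain where the counting could split or drop such reads.

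Among the feedback inhibitors, Socs2 had the largest difference between groups. Socs2 (ENSMUSG00000020027), listed on chromosome 10 from 94847996 to 94875745, encodes a STAT5 target that binds the growth hormone receptor and limits its signal. It was at 626, 605 and 2108 normalized counts in EtOH and 37.6, 440 and 226 in TAM. Every TAM library lay below every EtOH library, EtOH replicate 3 was more than 3 times the other EtOH libraries, and TAM replicate 1 was far below the other TAM libraries. The means were 1113 ± 862 in EtOH and 234 ± 201 in TAM (SD, n = 3). The log2 fold change was −2.57 (standard error 0.91, 95% interval −4.72 to −0.42), and 0.429% of all genes tested had one as low or lower. The test over all genes gave an unadjusted p of 0.0256 and an adjusted p of 0.295 (limma), and the exact two-sided permutation test gave p = 0.1, the smallest possible here. Within the same-numbered pairs the log2 difference was −4.02, −0.46 and −3.22, so replicate 2 gave the smallest. Leaving out single libraries or pairs gave −3.62 to −1.55, the latter without TAM replicate 1 (limma adjusted p = 0.516). Of its longest coding transcript, 10.7% matched sites on chromosomes 12 and 15 by the same criterion.

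The growth hormone receptor gene Ghr, chosen for mention after its values were seen, was at 13361, 11834 and 17934 normalized counts in EtOH and 5962, 4914 and 12956 in TAM. The groups overlapped through TAM replicate 3, with a log2 fold change of −0.97 (limma adjusted p = 0.344, standard error 0.39). The prolactin receptor gene Prlr, also chosen after its values were seen, went the other way. It was at 8.32, 32.4 and 21.2 in EtOH and 68.6, 55.3 and 31 in TAM. Its groups overlapped, with a log2 fold change of 1.39 (limma adjusted p = 0.356, standard error 0.57). Igf1, a growth hormone and STAT5 target, was at 1492, 1225 and 2434 in EtOH and 1651, 677 and 3202 in TAM, with a log2 fold change of −0.10 (limma adjusted p = 0.960). Its highest and lowest library were both TAM libraries. Bcl6, a transcriptional repressor on the same STAT5 response list, was at 1229, 1565 and 1239 in EtOH and 951, 604 and 1035 in TAM (log2 fold change −0.67, limma adjusted p = 0.304). Its groups did not overlap, as was so with TAM the lower for 11.4% of all genes. Whether STAT5 raises or lowers these genes in MSFs was not tested.

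Socs3 (ENSMUSG00000053113), on chromosome 11 from 117827393 to 117830500, encodes the inhibitor that STAT3 induces and that binds gp130 and the JAKs. It was at 128, 406 and 117 normalized counts in EtOH and 201, 262 and 466 in TAM. EtOH replicate 2 was above TAM replicates 1 and 2, while the other EtOH libraries were below every TAM library. The means were 217 ± 164 and 310 ± 139 (SD, n = 3), with a log2 fold change of 0.67 (standard error 0.53, 95% interval −0.59 to 1.93, limma adjusted p = 0.638). Within pairs the log2 difference was 0.65, −0.63 and 1.99, so the pairs did not share a direction. The fold change was 1.24 without EtOH replicate 2 (limma adjusted p = 0.257) and 0.01 without both replicate 3 libraries. From these same libraries, the study proposed Socs3 and Pim1 as contributors to an enrichment of JAK-STAT factors in senescent MSFs. Their values here are therefore not independent evidence on the pathway. By staining, the study also reported increased phosphorylated STAT3 in senescent MSFs, which was not analysed here. For Pim1, which the study placed among increased genes, the log2 fold change here was −0.09. The cause of this difference was not tested.

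Cish (ENSMUSG00000032578), on chromosome 9 from 107198357 to 107204318, encodes a cytokine-inducible SH2 protein and is a classical STAT5 target. Per transcript length it was the least abundant member. It was at 7.54, 26.7 and 3.39 normalized counts in EtOH and 26.8, 26 and 22.9 in TAM. The TAM libraries lay close together, EtOH replicate 2 lay at their level, and the other EtOH libraries were several times lower. A read was worth about 0.87 normalized counts in EtOH replicate 3, so the lowest value stands for few reads. The means were 12.5 ± 12.4 and 25.2 ± 2.03 (SD, n = 3). A log2 fold change of 1.37 followed, with a standard error of 0.71 and a 95% interval of −0.30 to 3.04 (limma adjusted p = 0.464), and it was 2.09 without EtOH replicate 2 (limma adjusted p = 0.202) and 0.77 without EtOH replicate 3. In the annotation, 2 noncoding transcripts on the opposite strand, Gm17040 and Gm17041, cover 4.07% and 7.46% of its exonic bases.

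Socs1 (ENSMUSG00000038037), on chromosome 16 from 10783901 to 10785629, encodes a direct inhibitor of JAK kinase activity that interferons induce. It was at 40.5, 69.6 and 65.5 normalized counts in EtOH and 43.0, 54.5 and 122 in TAM. TAM replicate 3 was the highest library and the other TAM libraries lay within the EtOH range. Its log2 fold change was 0.21 with a 95% interval of −0.86 to 1.27 (standard error 0.45, limma adjusted p = 0.883), and −0.23 without TAM replicate 3.

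Pim1 (ENSMUSG00000024014), on chromosome 17 from 29627757 to 29632390, encodes a serine/threonine kinase that promotes survival and is induced by STAT3 and STAT5. It was at 430, 1033 and 379 normalized counts in EtOH and 565, 420 and 586 in TAM. EtOH replicate 2 was the highest library by a wide margin and the remaining libraries overlapped. The means were 614 ± 364 and 524 ± 90.7 (SD, n = 3), with a log2 fold change of −0.09 (standard error 0.39, 95% interval −1.0 to 0.82, limma adjusted p = 0.946). The sign turned without EtOH replicate 2 (0.36, limma adjusted p = 0.516) and under scaling by library size (0.02). A noncoding gene on the opposite strand, Gm16912, covers 23.7% of the exonic bases of Pim1.

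By same-numbered pair, 8 of the 10 members were higher in TAM in pair 1, 0 in pair 2 and 6 in pair 3, where 45.2%, 50.0% and 44.2% of all genes were. Stat5a and Socs2 were lower in TAM in all 3 pairs, as were 23.6% of genes, and no member was higher in all 3, as were 18.3%. With the replicate number as a block in the model, no member passed an adjusted p of 0.05 and 1.62% of all genes did, with 0.167 the lowest adjusted p among members, for Socs2 (limma). The plot of within-pair differences shows pair 2 at or below 0 for every member.

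**Figure D2:**
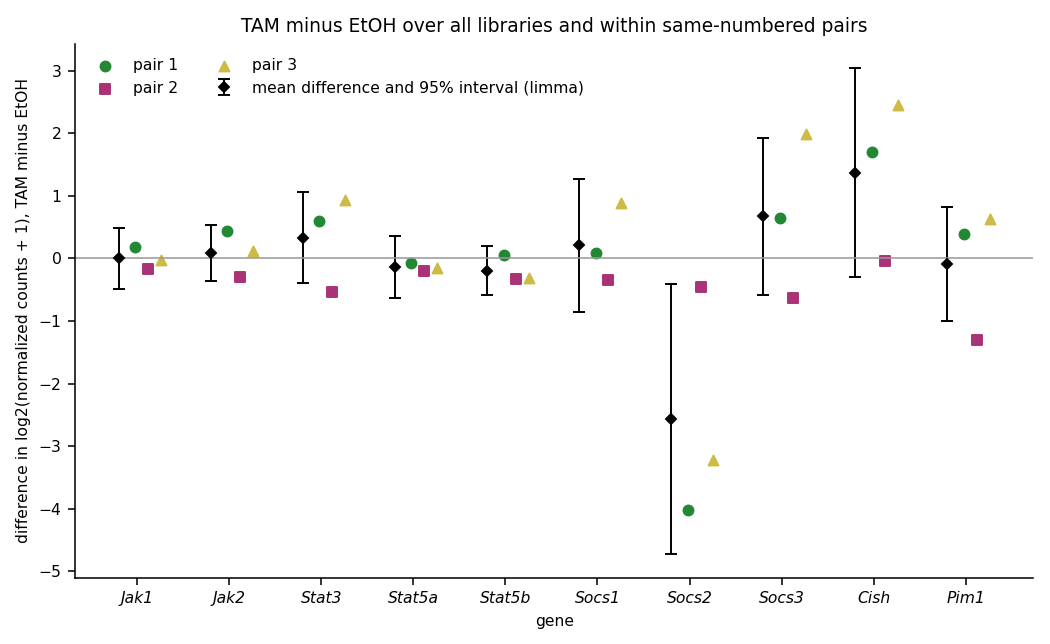
Difference in log2(normalized counts + 1), TAM minus EtOH (vertical axis), for each member, with black diamonds and bars for the limma mean difference and its 95% interval over 3 against 3 libraries, and coloured markers for the 3 same-numbered pairs. Only the interval of Socs2 (−4.72 to −0.42) leaves out 0, before adjustment over 11877 genes, and pair 2 is below 0 for all 10 members.

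EtOH replicate 2 carried the highest or near-highest level of a group of members. Compared with the mean of the other EtOH libraries it was 2.00 times for Stat3, 2.55 times for Pim1, 3.32 times for Socs3 and 4.89 times for Cish. These 4 of 10 members were at least 1.5 times both other EtOH libraries, against 13.0% of all genes. Of the 20 tested genes on a list of STAT3 response genes, compiled by hand with earlier results of these data known, 14 were as well. They included Bcl3, an IκB family coactivator (4.80 times), Mcl1, an anti-apoptotic BCL-2 relative (3.00 times), Vegfa, the endothelial growth factor (6.38 times), and the immediate early genes Junb (11.0 times) and Fos (20.3 times). Jak3, the kinase of common gamma chain receptors, was 5.19 times the mean of the other EtOH libraries. The same library also had 6 of 9 proliferation genes at least 1.5 times both others. TAM replicate 2 had 9 of 9 proliferation genes at least 1.5 times both other TAM libraries. In it Stat3, Pim1, Socs3 and Cish were 0.82, 0.73, 0.79 and 1.05 times the mean of the other TAM libraries. The part of proliferation genes in the values of the members was not tested.

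Over the 6 libraries, Stat3 ran with Socs3 (Pearson r = 0.91 on the log2 scale), with Cish (0.91) and with Pim1 (0.86), and Socs3 with Cish (0.81). Socs2 ran against Jak2 (−0.76) and Cish (−0.70), and Stat5a ran against Cish (−0.71). These describe 6 libraries of 2 groups that share the difference between groups and the high EtOH replicate 2. Among 87 other tested pathway genes, Bcl3 was the most like Stat3 (r = 0.98), Socs3 (0.92) and Cish (0.92), and Jak3 the most like Pim1 (0.95). Bcl3 was at 85.7, 359 and 63.6 normalized counts in EtOH and 293, 198 and 428 in TAM, which is the order seen for Socs3 and Stat3 in the EtOH libraries. The nearest genes were Ifnar1 for Jak1 (0.92), Igf1 for Stat5a (0.91), Il11ra1 for Stat5b (0.86), Lifr for Jak2 (0.82), Stat6 for Socs2 (0.79) and Stat2 for Socs1 (0.71). Among all 11876 other genes, Supt6h (0.99), Acvr1b (0.99) and Polb (0.98) were most like Socs3.

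**Figure D3:**
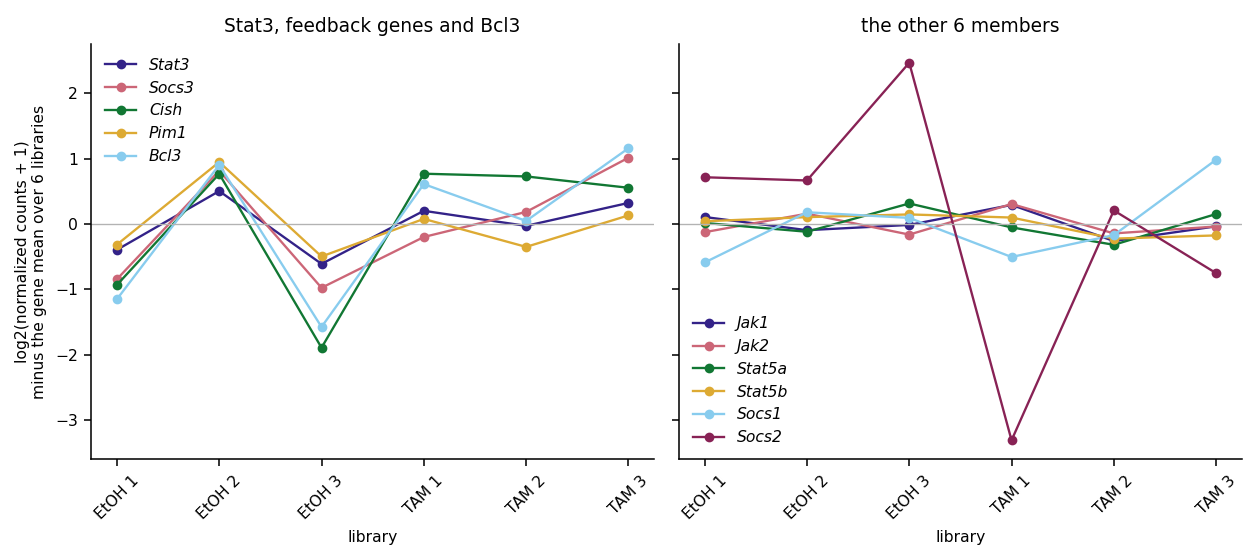
log2(normalized counts + 1) minus the mean of each gene over the 6 libraries (vertical axis) in each library, for Stat3, Socs3, Cish, Pim1 and Bcl3 on the left and for the other 6 members on the right, with lines only to guide the eye between libraries. The genes on the left all peak within EtOH at replicate 2, and Socs2 on the right spans the widest range, from 37.6 to 2108 normalized counts.

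Levels of different genes were compared per kilobase of the longest coding transcript. Counts were per gene, and all annotated exons of a gene together can be longer, 9532 against 4244 bases for Socs2. Places in the order can therefore depend on the length used. In EtOH the order was Jak1 (1491 ± 105 normalized counts per kb), Stat3 (727 ± 318), Pim1 (311 ± 185), Jak2 (286 ± 35.8), Socs2 (262 ± 203), Stat5b (126 ± 4.59), Stat5a (95.6 ± 15), Socs3 (85.1 ± 64.3), Socs1 (48 ± 12.9) and Cish (4.40 ± 4.36; SD, n = 3). The ranges of neighbours overlapped from Stat3 through Pim1 and Jak2 to Socs2, and from Stat5a through Socs3 to Socs1. In TAM, Jak1 (1506 ± 294 per kb) and Stat3 (868 ± 105) again led and Cish (8.84 ± 0.712) was again last. Socs2, at 55.2 ± 47.4 per kb, stood at place 9 in TAM and at place 5 in EtOH, and in TAM its range overlapped those of Socs1 and Cish. Socs3 stood at place 5 in TAM, at 121 ± 54.5 per kb, where its range overlapped that of Stat5b.

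**Figure D4:**
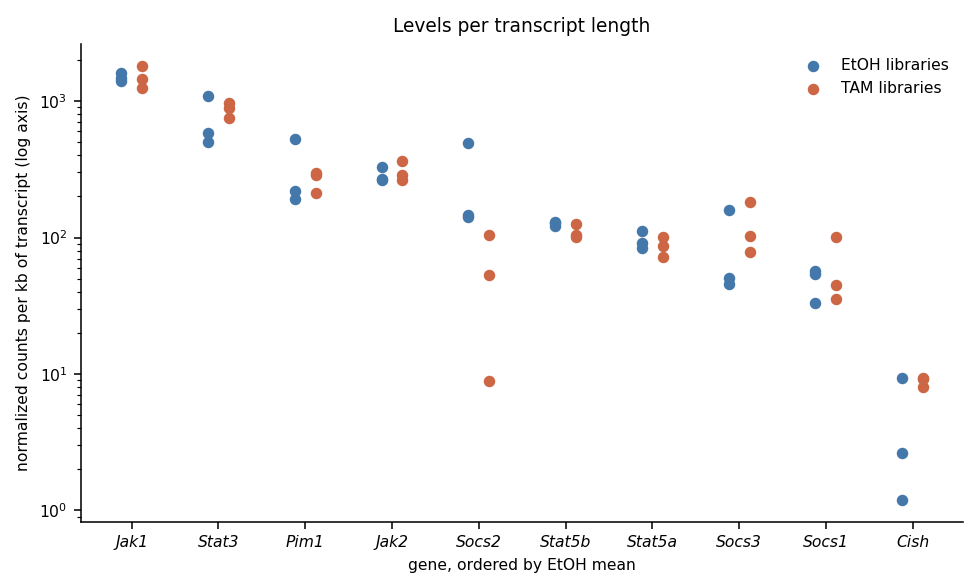
Normalized counts per kb of transcript (vertical log axis) of the 10 members, ordered by their EtOH mean, with 1 point per library, EtOH in blue and TAM in orange. Jak1 leads at 1491 per kb in EtOH, Cish is last at 4.40, and the Socs2 points of the groups lie apart.

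The rest of the pathway was read from lists of genes beside the members. Of the other STATs and JAKs, 5 of 6 were tested and none passed the adjusted threshold, 3 with positive and 2 with negative log2 fold changes (median 0.13). Tyk2, the fourth JAK, was at 406, 430 and 433 normalized counts in EtOH and 398, 286 and 382 in TAM (log2 fold change −0.27, limma adjusted p = 0.60). Stat2 and Stat6 had log2 fold changes of 0.37 and −0.23 (limma adjusted p = 0.70 and 0.671). Of 13 other negative regulators, 12 were tested and none passed, 5 positive and 7 negative (median −0.07). The smallest p among them was that of Ptpn1, a phosphatase that removes phosphate from JAK2 and TYK2. It was at 813, 665 and 645 in EtOH and 1126, 1045 and 1195 in TAM, with every TAM library above every EtOH library (log2 fold change 0.67, standard error 0.17, limma adjusted p = 0.183). Ptpn11, the phosphatase SHP2, had a log2 fold change of 0.60 and the SUMO ligase gene Pias4 one of −0.43 (limma adjusted p = 0.378 and 0.533).

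Upstream of the members, 21 of 31 receptor chains were tested, and none passed without the block. With the block 2 were higher in TAM, Il13ra2, a decoy receptor for IL-13, and Il15ra, which presents IL-15. Il13ra2 was at 5.16, 8.52 and 1.62 normalized counts in EtOH and 121, 90.5 and 29.9 in TAM (log2 fold change 3.71, limma adjusted p = 0.113 without and 0.0326 with the block). It passed the filter through its TAM values alone. Il15ra had a log2 fold change of 2.28 (limma adjusted p = 0.205 and 0.0498). Osmr, the oncostatin M receptor chain, was at 2571, 3090 and 1467 in EtOH and 5422, 4809 and 6997 in TAM, without overlap (log2 fold change 1.32, limma adjusted p = 0.160 and 0.156). Il6st, the gp130 gene, and Il6ra were chosen for mention after their values were seen. Il6st was at 22284, 10137 and 34852 in EtOH and 9255, 5737 and 14540 in TAM, lower in TAM in every same-numbered pair. Its groups overlapped, with a log2 fold change of −1.12 (limma adjusted p = 0.411 and 0.0860). Il6ra had a log2 fold change of −0.63 (limma adjusted p = 0.587 and 0.367). Over the tested chains, 11 log2 fold changes were positive and 10 negative. Of 20 ligand genes, 7 were tested, and none passed without the block. Il6, which signals through gp130, was higher in TAM with it, at 5.16, 7.56 and 0 in EtOH and 66.7, 138 and 26.2 in TAM (log2 fold change 4.08, limma adjusted p = 0.170 and 0.0332). Every EtOH value of Il6 was under the filter of 16.2 normalized counts, so it was tested only because of its TAM values. The study called Il6 increased in senescent MSFs from these libraries, at an edgeR FDR under 0.05. It also reported higher IL-6 RNA by qRT-PCR and more secreted protein by ELISA, which were not analysed here. Clcf1, another gp130 ligand, had a log2 fold change of 0.51 (limma adjusted p = 0.484). Il6, Osmr, Clcf1 and Ptpn11, and Bcl2l1 and Ccnd2 among the response genes, were also chosen by the study from these libraries, so their values are not independent evidence either.

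Of 21 genes in the table listed as STAT3 response genes, 20 were tested, 15 with positive and 5 with negative log2 fold changes (median 0.78). Whether STAT3 sets the levels of these genes in MSFs was not tested. Lcn2, the iron-binding lipocalin, was higher in TAM without the block, at 5.94, 8.52 and 2.50 normalized counts in EtOH and 110, 112 and 68.8 in TAM (log2 fold change 3.96, limma adjusted p = 0.0427). Lcn2 also passed the filter through its TAM values alone. With the block 4 were higher, namely Lcn2, the acute-phase genes Saa3 (log2 fold change 6.53, limma adjusted p = 0.0212) and Hp (5.01, 0.0147), and the metalloproteinase inhibitor Timp1 (1.85, 0.0384). Of 12 STAT5 response genes 5 were tested and none passed with or without the block, 3 positive and 2 negative (median 0.45), with Bcl2l1 at 0.89 and Ccnd2 at 0.63. Of the members, Socs2, at −2.57, lay below the lowest value of each of these lists. The range of the STAT3 response genes was wide, from −0.89 for Pim3 to 6.53 for Saa3. All the other members lay within it, among them Socs3 at 0.67 and Cish at 1.37. In limma's test without the block, the unadjusted p was under 0.05 for 13.4% of all genes tested. It was so for 0 of 5 other STATs and JAKs, 1 of 12 other negative regulators and 2 of 7 ligands. Among receptor chains it was so for 6 of 21, 4 with positive and 2 with negative fold changes. Of the response genes, 7 of 20 on the STAT3 list and 1 of 5 on the STAT5 list had such a p. The lists were compiled by hand with earlier results of these data known, so these shares are not independent evidence. Genes under the filter in every library of a group entered these counts and shares only if the other group was above it.

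**Figure D5:**
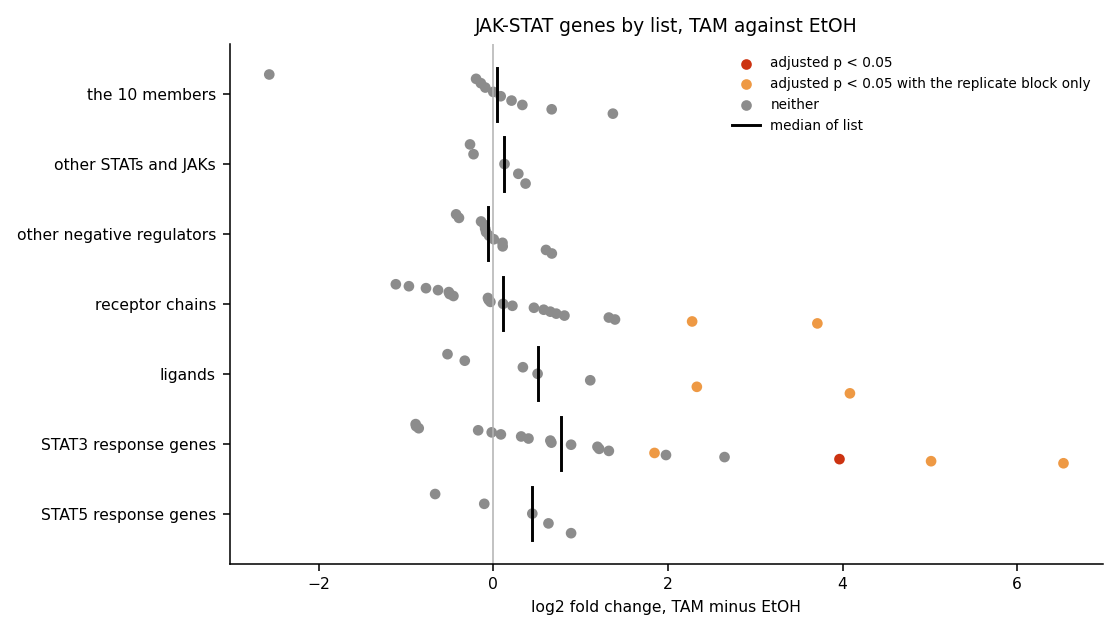
Log2 fold change, TAM minus EtOH (horizontal axis), of each tested gene of the 10 members and of 6 other JAK-STAT gene lists, with a black bar at the median of each list, red points for a limma adjusted p under 0.05 and orange points for one under 0.05 with the replicate block only. The members have a median of 0.04 and no coloured point, Lcn2 is the 1 red point, and Socs2 at −2.57 is the lowest point.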

How the data were processed

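RNA-seq reads of 6 MSF libraries, 3 TAM and 3 EtOH, had been mapped to mm9 with TopHat, counted per gene with htseq-count and analysed with edgeR and TMM normalization by the authors, whose tool versions are not given in the sources used here. The signal deposited by the authors is 1 table with a normalized count for each gene in each library, listed by Ensembl identifier. Its scaling is not stated and most of its entries are not whole, so no count model was run. The smallest values above 0 were 0.36 to 0.89, and 4829 genes were at 0 in all libraries, so a gap of few normalized counts can come from few reads.

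The groups are the conditions that the labels give. limma 3.58.1 in R 4.3.3 was fitted to log2(value + 1) with an intensity trend, over the 11877 genes with at least 1 c.p.m. (16.2 normalized counts) in at least 3 of 6 libraries, with Benjamini-Hochberg adjustment over all of them and a threshold of 0.05. The replicate numbers of the labels were used as a block in a second fit. Deviations from the group means correlated at 0.241, 0.287 and 0.422 between same-numbered libraries and at −0.310 to 0.0374 between the others. On this ground the numbers were taken to pair the libraries. The sources do not say whether same-numbered libraries share a culture or a day. The calls made only with the block therefore rest on a pairing read from these same data. The ratio of Stat5a to Stat5b was compared by an exact permutation test.

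The members and the gene lists were chosen with earlier results of these data known, and the lists were compiled by hand. All members are named. Of each other list, genes passing the threshold in either fit were to be named, or else those with the smallest p, to at least 3 per list. The gene most like each member was to be named from all listed genes, with the 3 most like Socs3 and Cish from all genes. Some items that these rules pick are not reported here. Gene positions and exon overlaps were taken from the mm9 annotation, promoters from RefSeq (GRCm38.p6), and BLAST 2.17.0 was used to align the transcripts to the mm9 genome. Python 3.11.15, pandas 2.3.3, scipy 1.17.1 and matplotlib 3.10.9 made the tables and figures. Alternatives were pseudocounts of 0.1 and 10, no filter or a minimum of 10 in all libraries, 3 other scalings, the block, library weights and leaving out each library. Leaving out each same-numbered pair was chosen after seeing the data. The qRT-PCR, protein and tissue experiments were not analysed here.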

Additional observations from a re-analysis of the deposited data

How the results depend on the processing

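No member passed an adjusted p of 0.05 under any of 18 alternatives, and the lowest adjusted p was 0.0541, for Socs3 with library weights (limma). Stat3, Stat5a, Stat5b, Socs2 and Socs3 kept their direction under all 18 alternatives and Cish under the 16 in which it was tested. Cish failed the filter without both replicate 2 libraries and with a minimum of 10 in all libraries. The sign turned for Jak1 under library-size scaling (0.11), median-ratio scaling (0.0178) and quantile normalization (0.0220), and for Pim1 under library-size scaling (0.0200) and library weights (0.40), and the cause was not tested. Leaving out single libraries or same-numbered pairs gave log2 fold changes of 0.03 to 0.76 for Stat3, −0.26 to −0.02 for Stat5a, −0.32 to −0.13 for Stat5b, −0.15 to 0.13 for Jak1, −0.0891 to 0.28 for Jak2, −0.23 to 0.51 for Socs1, −0.45 to 0.51 for Pim1 and −0.10 to 0.15 for the difference in the Stat5a to Stat5b log2 ratio. Over all genes, 20 were called higher in TAM and 9 lower. The replicate block gave 119 and 73, library weights 386 and 356, no filter 12 and 5, and a minimum of 10 in all libraries 4 lower. Leaving out libraries or pairs gave 0 to 7 higher and 0 to 9 lower, from fewer libraries. With library weights the log2 fold change was 0.71 for Stat3 (limma adjusted p = 0.0624), 1.86 for Cish (0.0623) and −2.70 for Socs2 (0.0714). The block left the Stat5a to Stat5b difference at 0.05 (exact sign-flip p = 0.5) and changed no call of a member. Library-size scaling moved the median of all genes by 0.11 on the log2 scale, which is the size of the value of Jak1 under it. With 3 libraries a group, the 95% interval of Cish reaches from −0.30 to 3.04. It includes 0, so the log2 fold change of 1.37 could not be told from 0.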
